A study of Mus musculus with 30 samples.

Results

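The comparison set late against early weeks of oral benzo[a]pyrene (BaP) in preputial glands labelled Cyp1a1/1b1 double knockout (DKO), and it asked what still changes once the first response to BaP is in place. The arrays were chosen by their titles alone: 4 DKO arrays of weeks 12 and 16 (late) against 4 DKO arrays of weeks 4 and 8 (early), which are 8 of the 30 arrays of the series. The late mice were 18 and 22 weeks old and the early mice 10 and 14 weeks old. All were B6 males given food with corn oil and BaP from 6 weeks of age, at about 12.5 mg/kg/day, and each array held the RNA of 1 of 2 mice a week. The other groups used here were DKO mice at week 0, before BaP, and male B6 mice of the same diet and weeks that were Cyp1a1 knockout (KO) or wild type (WT). The sources used here do not say which part of either gene was deleted or that any tumour was dissected apart. The tissue label is the duct of the gland, while the protocols describe whole glands freed of surrounding tissue. Weeks of BaP, age and the running number in the array labels all rise together over these 8 arrays, so their parts in any difference between late and early weeks cannot be told apart.

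BaP is a combustion product that binds the aryl hydrocarbon receptor (AhR), a transcription factor whose targets include the cytochrome P450 enzymes CYP1A1 and CYP1B1, which oxidize BaP. The preputial gland is a modified sebaceous gland that drains through a duct lined by stratified squamous epithelium. Injured squamous epithelium makes alarm proteins, chemokines and acute-phase proteins that draw in myeloid cells, and later, in wounds and tumours alike, fibroblasts lay down a provisional matrix.

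The 8 arrays had narrower distributions than the WT arrays before any comparison. The standard deviation of their deposited log2 values was 1.155 in replicate 1 of week 16, up to 1.417 in 6 others, and 1.699 in replicate 2 of week 12, against 1.906 or more in every WT array. They were not a set of their own, since 1 DKO mouse of week 0 (1.252) and 1 KO mouse of week 12 (1.348) were as narrow. Every array was therefore brought to a common distribution (quantile normalization over the 30 arrays), and all levels below are log2 intensities on that scale unless stated. Across genes, which are not independent replicates, the 2 mice of a week correlated at 0.688 to 0.859 (4 pairs, median 0.787), and a late with an early array at 0.654 to 0.872 (16 pairs, median 0.791). Mice of 1 week were thus no more alike than a late and an early mouse, whereas pairs of WT arrays correlated at 0.962 to 0.995. Replicate 1 of week 16 was the least like the others, with a median correlation of 0.691. List medians and calls that it turned are given without it as well.

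Cyp1b1, named in the genotype, was at 10.47, 10.40, 10.36 and 10.65 in the late arrays (weeks 12, 12, 16, 16), against 10.65, 10.76, 10.67 and 10.49 in the early arrays (weeks 4, 4, 8, 8), and at 8.45 and 8.41 at week 0. WT arrays of weeks 4 to 16 lay between 6.10 and 6.53. The signal of this gene was thus higher in glands labelled as lacking it. Cyp1a1 was at 5.70, 3.90, 3.33 and 5.20 in the late arrays, against 3.87, 3.31, 6.43 and 4.11 in the early arrays, and at 4.47 to 4.88 in WT arrays of the same weeks. Since the labels do not place either probe set inside or outside the deletion, these signals do not check the genotype.

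Of 18784 genes, 1 passed an adjusted p under 0.05 in limma: Saa3, which was higher in late weeks (0.00532% of genes tested called higher, and 0% called lower). Saa3 encodes serum amyloid A3, an acute-phase protein that mice make at inflamed sites as well as in liver. It was at 8.96, 9.19, 10.96 and 8.58 in the late arrays, against 3.52, 3.85, 4.33 and 6.03 in the early arrays, and at 4.37 and 4.44 at week 0. Every late mouse was above every early mouse, and the early mice were near the level before BaP. The rise was 4.99 ± 0.62 on the log2 scale (SE of the model, n = 4 arrays each, limma adjusted p = 0.0211). Because low signals include background that was not measured here, log2 differences are given rather than folds. Without replicate 1 of week 16 the difference was 4.47 and the adjusted p 0.0615, and it missed the threshold in 6 of 8 repeats that left out 1 array each (adjusted p 0.0615 to 0.149). The call was also lost on ranks (adjusted p = 0.491) and with the replicate number as a block (0.0507). On the deposited values, which kept each array's own range, the rise was 4.13 with an adjusted p of 0.00396, and over all alternatives the adjusted p ran from 2.4e-06 to 0.491.

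The related genes did not share this pattern. Saa1 was at 3.26, 3.20, 4.74 and 5.36 in the late arrays, against 2.99, 2.46, 3.48 and 2.38 in the early arrays, a difference of 1.32 ± 0.54 with overlapping groups. Saa2 differed by 0.12 ± 0.65 and Saa4 by -0.73 ± 0.47, neither past the threshold, and the sign of Saa2 changed in some other settings. Their levels were below 7 on every one of the 8 arrays.

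The promoter of Saa3 is shown because it was the gene called, and that of Cxcl2 because it was the chemokine gene nearest the threshold. Sequences are the 250 bases before the start of each gene from RefSeq, build GRCm38.p6, for Saa3 chr7:46715677-46715926 on the minus strand and for Cxcl2 chr5:90903649-90903898 on the plus strand. Capitals mark a match, on either strand, to the C/EBP-like letters TTGCNNAA in Saa3 and to the NF-kappaB-like letters GGGNN directly followed by TTTCC in Cxcl2.
Saa3: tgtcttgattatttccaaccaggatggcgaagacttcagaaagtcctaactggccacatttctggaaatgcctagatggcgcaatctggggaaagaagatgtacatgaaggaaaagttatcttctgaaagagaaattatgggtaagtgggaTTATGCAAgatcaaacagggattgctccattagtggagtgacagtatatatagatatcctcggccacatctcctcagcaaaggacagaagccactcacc
Cxcl2: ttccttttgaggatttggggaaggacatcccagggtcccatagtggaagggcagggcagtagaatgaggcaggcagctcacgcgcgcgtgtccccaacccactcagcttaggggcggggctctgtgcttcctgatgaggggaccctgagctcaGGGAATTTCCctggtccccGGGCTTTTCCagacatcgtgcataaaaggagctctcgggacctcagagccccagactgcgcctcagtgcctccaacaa
The match in Saa3 begins 99 bases before the start, and the 2 matches in Cxcl2 begin 97 and 78 bases before it. Of 32851 promoters of this length, 9.56% hold TTGCNNAA and 1.41% hold the NF-kappaB-like letters. The AP-1-like letters TGANTCA, in 6.75% of promoters, were in neither window, nor in those of Fpr2 and Clec4d, and the motif matches did not overlap one another. Nothing about binding of a factor was measured.

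No other gene passed the threshold. In 268 genes, Saa3 among them, every late array was above every early array (1.43% of genes tested), and in 283 every late array was below (1.51%). At an unadjusted p under 0.05 there were 560 higher (2.98%) and 438 lower (2.33%), and the median difference of all genes was -0.0188. These shares are close to those that such rules pass where no gene differs, so a gene that was apart and not called is described below without more weight than its own values. The 12 annotated genes nearest the threshold on the higher side that were apart come first, with other members of their groups. A transcript known only as 9930014A18Rik lay among them, at 8.03, 6.18, 8.29 and 6.73 late, against 3.15, 4.30, 4.32 and 2.01 early (difference 3.86 ± 0.61, limma adjusted p = 0.109), and at 4.56 and 7.81 at week 0. The plot of acute-phase, receptor and chemokine genes by week shows 8 of the higher ones mouse by mouse.

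**Figure D1:**
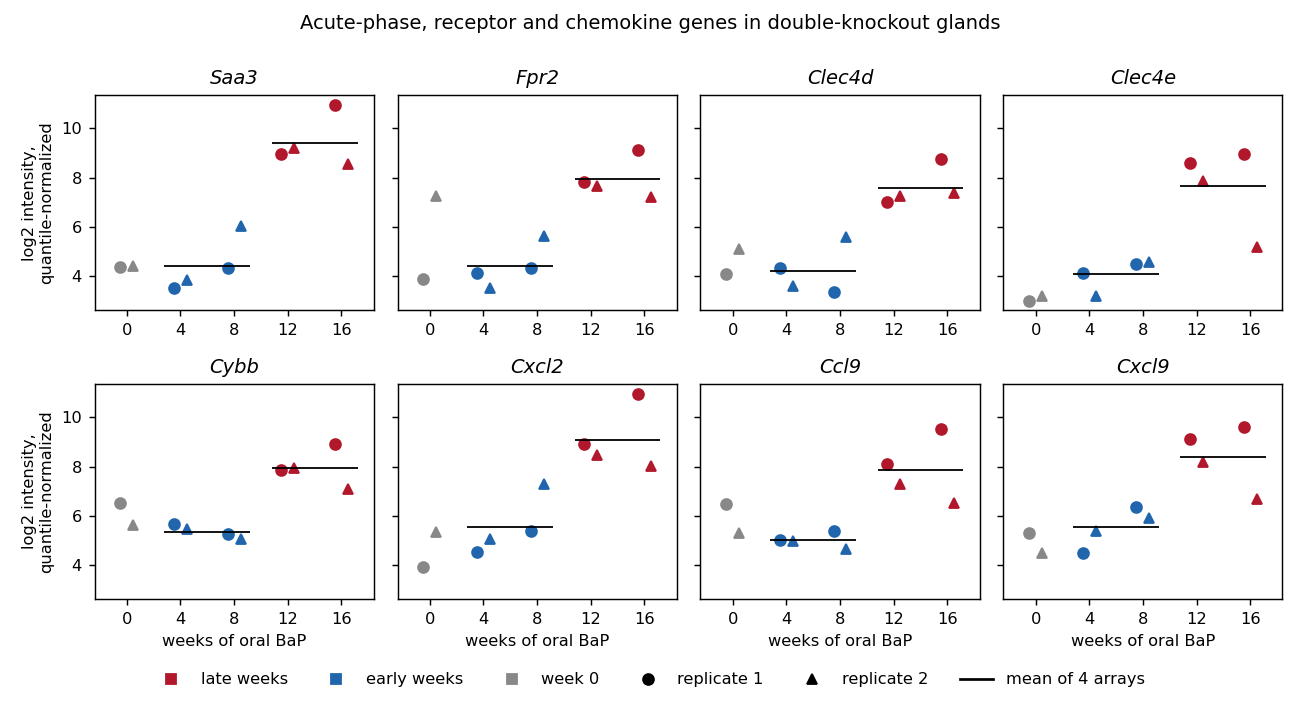
Levels of 8 genes in DKO glands (log2 intensity after quantile normalization, vertical axis) by weeks of oral BaP (horizontal axis). Each symbol is 1 mouse, circles replicate 1 and triangles replicate 2, with week 0 in grey, early weeks in blue and late weeks in red, and bars mark the mean of 4 arrays. Late Saa3 lies between 8.58 and 10.96, above all early mice, and replicate 1 of week 16 is the highest late mouse in each panel. That array also had the narrowest deposited values, with a standard deviation of 1.155 that normalization widened to 1.72. The part of this scaling in its place was not tested.

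Among receptors, Fpr2, a receptor for formylated peptides and for serum amyloid A on phagocytes, was at 7.85, 7.65, 9.14 and 7.20 in the late arrays, against 4.14, 3.54, 4.34 and 5.62 in the early arrays. Its difference was 3.55 ± 0.54 (limma adjusted p = 0.108). The 2 week 0 mice were at 3.89 and 7.26, so 1 lay within the early range and the other within the late range. Clec4d, a C-type lectin receptor of myeloid cells, was at 7.002, 7.27, 8.75 and 7.39 in the late arrays, against 4.33, 3.61, 3.37 and 5.59 in the early arrays (difference 3.38 ± 0.56, limma adjusted p = 0.122). Clec4e, the neighbouring lectin known as Mincle, was at 8.61, 7.88, 8.98 and 5.19 late, against 4.15, 3.20, 4.49 and 4.59 early. Replicate 2 of week 16 was therefore far below the other late mice for Clec4e, though still above all early mice. Without it 2 genes were called, Saa3 and Clec4e. Clec4n, a further lectin of this group, differed by 2.57 ± 0.72 and overlapped, since the same mouse had 4.06, within the early arrays' 3.10 to 4.44. Clec7a, the beta-glucan receptor, differed by 1.35 ± 0.50, also with overlap.

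Cybb, the catalytic subunit of the phagocyte NADPH oxidase, was at 7.87, 7.94, 8.91 and 7.09 in the late arrays, against 5.68, 5.46, 5.26 and 5.06 in the early arrays (difference 2.59 ± 0.46, limma adjusted p = 0.168). The early arrays were tight and below the week 0 mean of 6.06. Lpcat2, a lysophospholipid acyltransferase that makes platelet-activating factor, differed by 2.59 ± 0.58. Colec12, a scavenger receptor with a collagen-like stretch, differed by 1.92 ± 0.44. Rab12, a small GTPase of membrane traffic, differed by 2.01 ± 0.45. The early means of Lpcat2 (5.04), Colec12 (5.46) and Rab12 (4.31) were also below their week 0 means of 6.43, 6.04 and 5.56. For Rab12 the late mean of 6.32 was below the WT means of 6.68 late and 6.70 early. None of these passed the threshold, and in each the late and early mice were apart.

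Among ligands, Cxcl2, a chemokine that attracts neutrophils through CXCR2, was at 8.92, 8.49, 10.95 and 8.01 in the late arrays, against 4.53, 5.05, 5.38 and 7.28 in the early arrays (difference 3.53 ± 0.68, limma adjusted p = 0.355). Cxcl1, which acts on the same receptor, was at 6.38, 6.26, 7.35 and 5.06 late, against 6.32, 6.78, 6.43 and 6.34 early, and differed by -0.20 ± 0.49. Those closely related chemokines thus had unlike values in the same mice. Ccl9, a CC chemokine of mice, was at 8.12, 7.29, 9.51 and 6.51 late, against 5.03, 4.96, 5.38 and 4.68 early (difference 2.85 ± 0.57). Its early mean of 5.01 was below its week 0 mean of 5.88 and its late WT mean of 6.35. Cxcl9, an interferon-gamma-induced chemokine for T cells, was at 9.14, 8.18, 9.62 and 6.69 late, against 4.47, 5.37, 6.36 and 5.91 early (difference 2.87 ± 0.62). The groups were apart for both, with replicate 2 of week 16 the lowest late mouse. Il1b, the cytokine interleukin 1 beta, was at 8.17, 8.27, 9.27 and 8.10 late, against 5.28, 6.49, 4.94 and 8.09 early. The groups were barely apart, since replicate 2 of week 8 stood next to the lowest late mouse.

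The gene lists here and below were chosen with earlier results of these data known. Their counts beside the shares of all genes are therefore no independent support for a late rise. The list of neutrophil and acute inflammation genes held 30 measured members, of which 5 had late arrays above all early arrays, against 1.43% of all genes. At an unadjusted p under 0.05, 12 of the 30 were higher, against 2.98% of all genes, and 1 was lower, 1 of them (Saa3) passed the adjusted threshold, and the list's median difference was 0.67. The same list had a median of 0.121 in WT and 0.117 in KO. Cxcr2, the receptor for these chemokines, differed by 1.12 ± 0.55. Over the whole list 23 members were above 0 and 7 below. A set of 5 neutrophil genes of this list (Ly6g, Csf3r, Mpo, Ngp and Elane), picked after their values were seen, was at 2.66 to 5.91 over the 8 arrays. None of the 5 had a difference above 0, while S100a8 (4.33 ± 1.27) and S100a9 (4.25 ± 1.16), also on the list, did. Background was not measured, so the low signals of those 5 genes do not show whether neutrophils changed in number. Ly6g, a neutrophil surface marker, was at 4.64, 2.87, 2.76 and 2.94 late, against 2.95, 3.04, 3.37 and 4.68 early. Csf3r, the receptor for granulocyte colony-stimulating factor, differed by -0.16 ± 0.52, Mpo (myeloperoxidase) by -0.37 ± 0.51, and Ngp, a granule protein, by -0.41 ± 0.51. Elane, neutrophil elastase, differed by -1.17 ± 0.54 and was the 1 member lower at an unadjusted p under 0.05. Lcn2, which keratinocytes make too, was high throughout, at 9.14 to 10.07 late and 9.11 to 10.41 early. In a bulk gland, more cells of a type and more RNA per cell cannot be told apart.

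Macrophage and complement genes gave 16 of 18 members with a difference above 0, against 48.4% of all genes. In 4 members every late array was above every early array, against 1.43% of all genes. The list's median difference was 0.918, and no member passed the adjusted threshold. C1qa, a chain of the complement protein C1q made by tissue macrophages, was at 7.38, 6.62, 7.78 and 6.73 late, against 5.50, 5.64, 5.20 and 5.88 early (difference 1.57 ± 0.43, limma adjusted p = 0.73). Lyz2, the myeloid lysozyme, was at 10.02, 9.84, 10.82 and 9.40 late, against 8.35, 6.26, 8.89 and 8.79 early (difference 1.95 ± 0.58). The groups were apart for both genes. Cd14, the co-receptor for lipopolysaccharide, differed by 1.79 ± 0.57 and was also apart. Its week 0 mice, at 5.07 and 8.05, had a mean of 6.56, near the late mean of 6.71. Msr1, a macrophage scavenger receptor, differed by 2.08 ± 0.63 with overlap, and C1qc by 0.94 ± 0.49. The mean level of the list was 6.49 to 7.64 in late arrays and 5.77 to 7.0 in early arrays, so it overlapped. Without replicate 1 of week 16 the median was 0.814, and on deposited values 0.824.

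In the main fit, genes of the wound matrix and of myofibroblasts had the highest median of the 31 lists, 1.11. Their rank was not kept on deposited values, with a median of 0.804, against 0.824 for macrophage genes and 1.27 for the first-response list below. Without replicate 2 of week 8 the 3 medians were 1.16, 1.22 and 1.48. In the main fit 13 of 14 wound matrix members were above 0, against 48.4% of all genes, and 7 of them past an unadjusted p of 0.05, against 2.98%. Pdpn, podoplanin, a membrane glycoprotein of activated fibroblasts and of keratinocytes at wound and tumour edges, was at 7.50, 7.10, 8.23 and 6.86 late, against 5.36, 4.83, 3.89 and 5.94 early (difference 2.42 ± 0.51, limma adjusted p = 0.495). Tnc, tenascin C, a matrix glycoprotein made in healing tissue, was at 4.17, 5.55, 6.83 and 5.91 late, against 3.17, 3.03, 3.21 and 3.82 early (difference 2.31 ± 0.53). Its early arrays were near the week 0 mean of 3.48. Postn, periostin, another matrix protein of healing tissue, was at 9.88, 9.90, 11.07 and 9.44 late, against 7.60, 7.43, 7.72 and 9.18 early (difference 2.09 ± 0.51). Each of these was apart and none was called. Acta2, smooth muscle actin, differed by 1.72 ± 0.64, Fn1 (fibronectin) by 1.47 ± 0.56, Loxl2, a collagen cross-linking enzyme, by 1.38 ± 0.57, and Fap (fibroblast activation protein) by 1.24 ± 0.56, each with overlap. The late means of Acta2 (7.62) and Fn1 (6.20) were below the early WT means of 7.96 and 6.83, while those of Loxl2 and Fap were above theirs. The early DKO means of Acta2 (5.90) and Fn1 (4.73) were below week 0 (7.08 and 5.40). The list's mean level was 6.23 to 7.67 in late arrays and 5.52 to 6.11 in early arrays, with no overlap. Its median was 1.35 at week 16 and 1.02 at week 12, each against the early arrays, and 0.979 without replicate 1 of week 16.

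Collagens and stromal genes had a median of 0.503, with 11 of 15 members above 0 and 0 apart. At an unadjusted p under 0.05, 4 were higher, against 2.98% of all genes. These 4 were Lum (lumican, 1.72 ± 0.63), Col3a1 (collagen III, 1.33 ± 0.48), Sparc (a collagen-binding matrix protein, 1.08 ± 0.46) and Vim (vimentin, 1.06 ± 0.46). Of 18 matrix proteases and their regulators, 12 were above 0 and the median was 0.434. Mmp12, the macrophage elastase, was the 1 that was apart, against 1.43% of all genes on the higher side and 1.51% on the lower side. It was at 9.35, 9.07, 10.09 and 7.24 late, against 6.68, 6.89, 6.56 and 6.54 early (difference 2.27 ± 0.55). Mmp3 (stromelysin 1) differed by 1.82 ± 0.70 and Mmp13 (collagenase 3) by 1.39 ± 0.54, each with overlap.

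**Figure D2:**
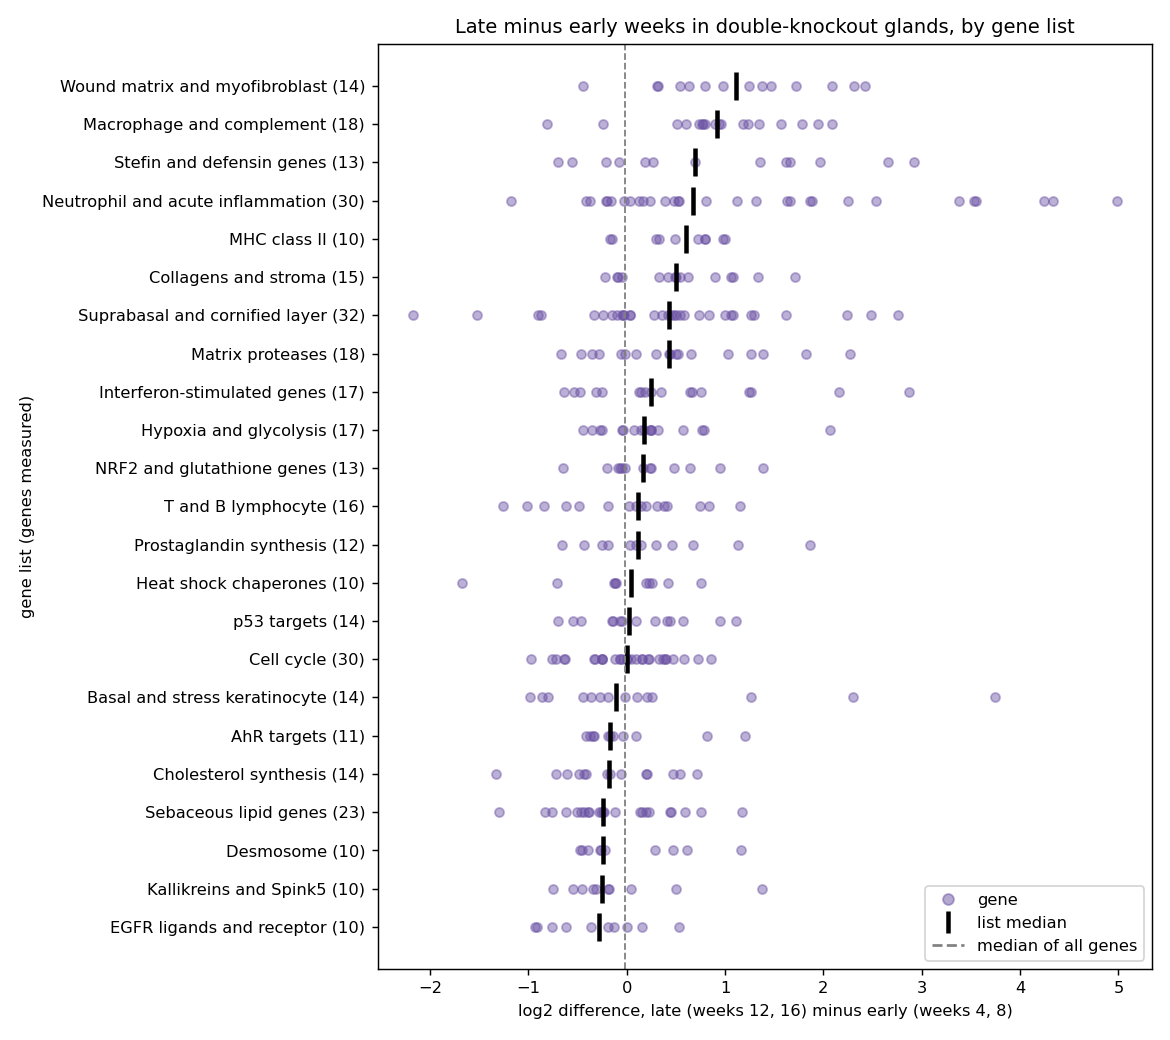
Log2 difference between late and early DKO arrays (horizontal axis) for every measured gene of 23 lists (vertical axis, number measured in brackets). Dots are genes, black ticks list medians, and the dashed line the median of all genes (-0.0188). The wound matrix list has the highest median, 1.11, and the lists of cell cycle, AhR, sebaceous and cholesterol genes lie near or below the dashed line.

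Some genes, epithelial ones and others, were already at late levels in 1 early mouse, replicate 2 of week 8. Of the early arrays it also had the highest mean of the neutrophil list (6.24) and of the macrophage list (7.002). S100a8, a subunit of the alarm protein calprotectin, was at 10.93, 10.86, 12.28 and 10.05 in the late arrays, against 3.69, 4.16, 7.39 and 11.55 in the early arrays. Its difference of 4.33 ± 1.27 had a limma adjusted p of 0.777. S100a9, its partner, had 11.63 in that mouse, against 4.93 to 5.56 in the other early mice and 9.47 to 12.34 in the late mice. The early group therefore held 3 mice with low levels and 1 at the late level. Krt6b, a keratin of stressed epithelium, had 9.65 there, against 3.01 to 4.50 in the other early mice. Sprr1b, a cornified envelope precursor, had 10.58, against 5.63 to 5.67. Defb14, an epithelial beta-defensin, had 10.15, against 4.24 to 5.39. Cxcl13, a B cell chemokine, had 9.63, against 4.77 to 5.86, and Cd300ld4, a receptor of the CD300 family, had 9.22, against 3.002 to 3.36. Krt16, which often accompanies Krt6b, was apart, at 7.98, 7.29, 7.03 and 5.46 late, against 3.70, 4.77, 4.67 and 5.44 early (difference 2.30 ± 0.56), with that mouse just under the lowest late one.

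**Figure D3:**
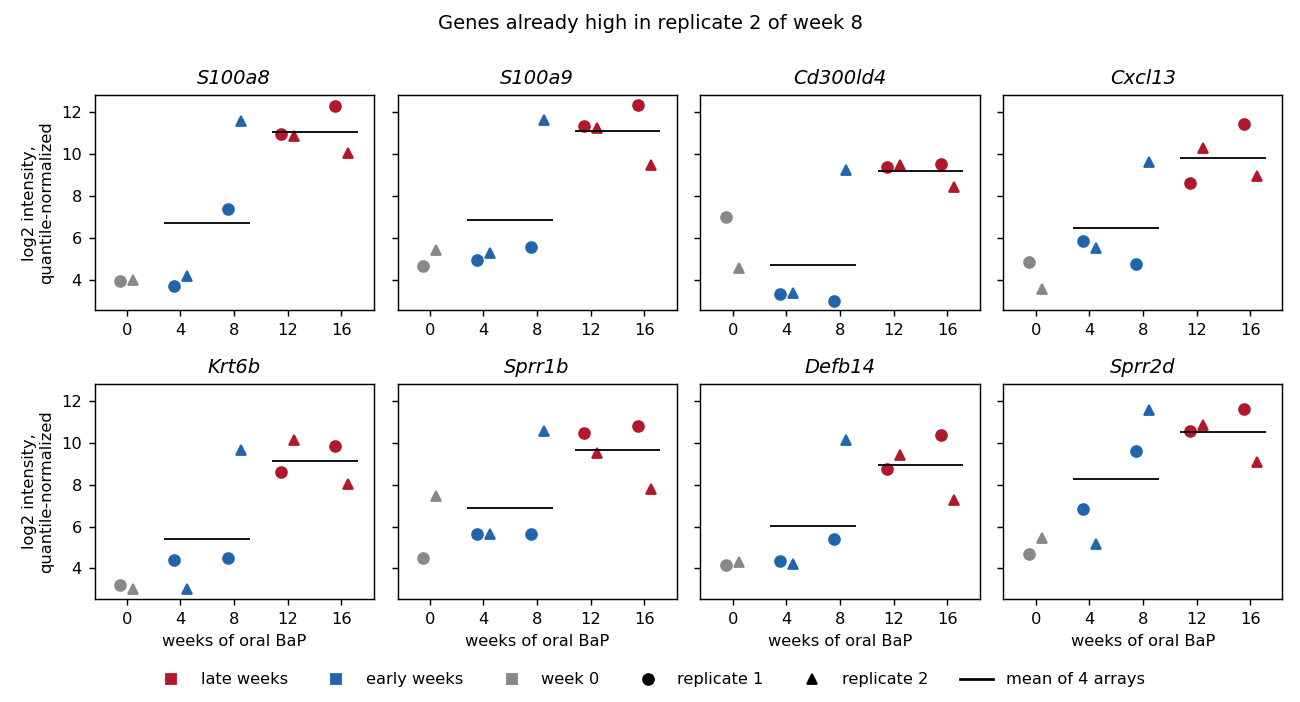
Levels of 8 genes in DKO glands (log2 intensity after quantile normalization) by weeks of oral BaP, with each symbol 1 mouse and bars the mean of 4 arrays. In every panel the blue triangle at week 8 (replicate 2) is within the range of the red late mice, for example at 11.55 for S100a8, while both week 4 mice are lower.

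Over all genes, 651 had their 3 other early arrays below all 4 late arrays, and in 383 of these (58.8%) replicate 2 of week 8 was not below the late arrays. The same share was 47.3% to 49.6% when another early array was the one set aside. Left out, that mouse changed the count of genes called from 1 to 14, of which 13 were higher late. Saa3 was among them, with S100a8, S100a9, Krt6b, Sprr1b, Sprr2f, Defb14, Cxcl2, Cxcl13, Clec4d, Fpr2, Cd300ld4 and Ifitm1 (an interferon-induced membrane protein). The lower one was 5530400C23Rik, at 2.67, 3.25, 2.72 and 2.92 late, against 5.57, 6.46, 5.98 and 3.86 early. Nothing in the labels sets this mouse apart, and its standard deviation of deposited values, 1.309, was within the range of the other narrow arrays.

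The 21 genes taken for the first response to BaP had a median difference of 1.08. The list was chosen from earlier results of these arrays, so this median is no independent support for a late rise. Of its members, 3 were apart on the higher side (Saa3, Cxcl2 and Tnc), against 1.43% of all genes, and 1 on the lower side, against 1.51%. Against week 0 the early weeks differed by 0.03 ± 0.74 for Saa3, 0.92 ± 0.84 for Cxcl2 and -0.18 ± 0.63 for Tnc. None of these 3 was called there, so the early weeks do not bear out the list's name for them. Defb4, a beta-defensin of keratinocytes, stood 7.33 ± 0.76 above week 0 in late weeks (limma adjusted p = 0.00087) and 5.71 ± 0.76 above it in early weeks (adjusted p = 0.0235). Stfa1, a stefin that inhibits cysteine proteases, stood 7.77 ± 0.93 above week 0 in late weeks (adjusted p = 0.00338) and 6.11 ± 0.93 in early weeks (adjusted p = 0.0651). With Saa3 (5.02 ± 0.74 in late weeks, adjusted p = 0.0272, and 0.03 ± 0.74 in early weeks), those were the only genes called against week 0, 3 in late weeks (0.016% of genes tested) and 1 in early weeks (0.00532%). Leaving out 1 array gave 1 (without replicate 2 of week 0) to 19 calls (without replicate 2 of week 8) in late weeks, and the early call was lost on deposited values and in 6 of 10 such repeats. Both comparisons use the same 2 week 0 arrays. Directly compared, late against early weeks, Defb4 differed by 1.62 ± 0.64 and Stfa1 by 1.66 ± 0.73, neither past the adjusted threshold.

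Rptn, repetin, an envelope protein of the granular layer, was at 10.05, 10.94, 10.28 and 9.61 late, against 9.54, 9.51, 10.997 and 11.44 early, and at 7.23 and 4.46 at week 0. It differed between late and early weeks by -0.15 ± 0.53, with a sign that changed in some other settings. Krt10, a suprabasal keratin, was at 11.44, 10.48, 11.21 and 10.53 late, against 9.03, 8.93, 10.34 and 11.04 early (difference 1.08 ± 0.53). Krt1, its partner, was at 11.15, 10.07, 11.31 and 10.47 late, against 4.49, 7.49, 9.90 and 11.19 early. The early values of both keratins were lower at week 4 than at week 8, and the week 8 mice lay within or near the late range. Sprr2d (2.24 ± 1.05), Lce3a (1.62 ± 1.08) and Il1f9, which encodes a cytokine of the interleukin 1 family (1.66 ± 0.70), had late and early mice that overlapped, as did Wfdc18, of the whey acidic protein family (-0.58 ± 0.42). Of 32 suprabasal and cornified-layer genes, 21 were above 0 with a median of 0.435, 0 were apart on the higher side, against 1.43% of all genes, and 3 were apart on the lower side, against 1.51%. That median was 0.149 without replicate 1 of week 16 and 0.842 without replicate 2 of week 8. Of the 3 that were apart, Sprr4 was at 10.82, 10.61, 5.35 and 9.76 late, against 11.61, 11.46, 11.24 and 10.90 early (difference -2.17 ± 0.91), where replicate 1 of week 16 was far below the rest and the difference without it was -0.911. Flg2, filaggrin 2, differed by -1.52 ± 0.54 with overlap.

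The AhR list showed no shared shift: 3 of its 11 measured genes were above 0, the median was -0.173 (0.018 without replicate 1 of week 16), and none was apart. Cyp1b1 differed by -0.17 ± 0.38, Nqo1, a quinone reductase, by -0.34 ± 0.57, Tiparp, an ADP-ribosyltransferase that represses AhR, by -0.41 ± 0.48, and Ahrr, the AhR repressor, by 0.82 ± 0.51. Against week 0, Cyp1b1 stood 2.04 ± 0.46 higher in late weeks and 2.21 ± 0.46 higher in early weeks, and neither was called. A p above the threshold with standard errors of 0.38 to 0.57 does not show that their levels were the same.

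**Figure D4:**
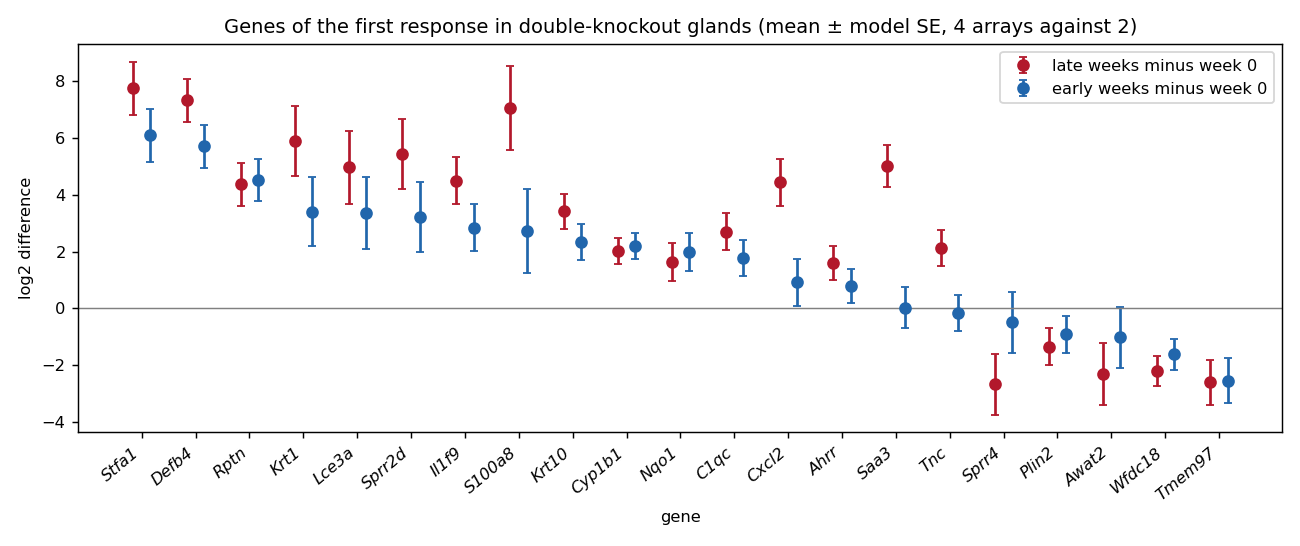
Log2 difference from week 0 (vertical axis) in late weeks (red) and early weeks (blue) for the 21 genes of the list taken for the first response (horizontal axis), as mean ± model SE of 4 arrays against the same 2 week 0 arrays. Stfa1, Defb4, Rptn and Cyp1b1 stand above 0 in both phases, while Saa3 stands at 5.02 in late and 0.03 in early weeks.

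Sebaceous lipid genes had a median of -0.238 over 23 members, and cholesterol synthesis genes -0.182 over 14. Awat2, the wax synthase of sebocytes, was at 9.90, 8.16, 4.60 and 9.36 late, against 9.49, 10.29, 9.72 and 7.73 early. One late mouse, replicate 1 of week 16, was low, and the other 3 overlapped the early mice, with a difference of -0.166 without it. Plin2, a lipid droplet coat protein, differed by -0.44 ± 0.55, and Tmem97, a sterol-regulated membrane protein, by -0.06 ± 0.67 with a sign that changed in some other settings. Without replicate 1 of week 16 the medians were 0.0614 for the sebaceous list and 0.137 for the cholesterol list, so their direction rested on that mouse. The mean level of sebaceous genes was 6.54 to 7.53 late and 6.71 to 7.46 early.

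Several lists had medians nearer that of all genes than the macrophage and wound matrix lists did. Cell cycle genes had a median of 0.0046, with 16 of 30 above 0, and p53 targets 0.0247, with 7 of 14 above 0. The lists of basal and stress keratinocyte, NRF2 and glutathione, hypoxia and glycolysis, prostaglandin, heat shock, EGFR, kallikrein, desmosome and T and B lymphocyte genes had medians between -0.277 and 0.173. Without replicate 1 of week 16 the basal keratinocyte median of -0.103 turned to 0.0702 and the desmosome median of -0.242 to 0.196, and the cell cycle median was -0.133 without replicate 2 of week 12. Stefins and defensins had a median of 0.696, with 6 of 13 higher at an unadjusted p under 0.05, against 2.98% of all genes. MHC class II genes had a median of 0.608, with 8 of 10 above 0, and interferon-stimulated genes 0.249, with 12 of 17 above 0, against 48.4% of all genes. Against the early arrays, the interferon-stimulated median was -0.0171 at week 12 and 0.516 at week 16. In the same order, it was 0.309 and 1.47 for stefins and defensins, and 0.722 and 0.43 for MHC class II. No stefin, defensin, MHC class II or interferon-stimulated gene of these lists passed the adjusted threshold. Gbp2, an interferon-induced GTPase, was apart, at 7.17, 6.38, 8.65 and 6.25 late, against 4.96, 4.28, 5.21 and 5.34 early (difference 2.16 ± 0.54). Cd79a, a B cell receptor component, differed by -1.25 ± 0.51 with overlap. Markers of neighbouring tissues had medians of 0.188 (skeletal muscle), 0.442 (fat), -0.103 (endothelium), -0.487 (red cell, 3 genes measured), -0.084 (male accessory gland), 0.153 (uroplakins of the duct, -0.148 without replicate 1 of week 16) and 0.254 (melanocyte and nerve). The accessory gland markers were low in both, at a mean of 3.49 to 3.83 late and 3.53 to 4.08 early. Fat cell markers averaged 6.49 to 7.16 late and 6.45 to 6.95 early, and their part in the differences above was not tested.

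On the lower side no gene was called. Sult2a4, a hydroxysteroid sulfotransferase, was at 3.71, 3.46, 4.53 and 2.88 late, against 6.69, 5.63, 6.66 and 6.65 early, and at 3.88 and 4.02 at week 0 (difference -2.76 ± 0.47, limma adjusted p = 0.135). Cyp4f37, a cytochrome P450 of the fatty acid hydroxylase family, was at 4.03, 3.75, 3.19 and 2.78 late, against 5.41, 4.83, 5.25 and 5.57 early (difference -1.83 ± 0.43). Onecut1, a homeobox transcription factor, was at 5.49, 5.62, 5.21 and 5.48 late, against 6.91, 7.05, 6.93 and 7.14 early (difference -1.56 ± 0.39). All 3 were apart. In the same order, their week 0 means were 3.95, 3.77 and 6.01 and their late WT means 3.58, 3.88 and 5.38, so the early DKO means were above all of these. The other 9 genes that the naming rule took on this side (G6pc3, a glucose-6-phosphatase subunit, Lysmd2, Traf7, Gmfg, P2rx5, Cmtm8, Ttc34, and the odorant and vomeronasal receptor genes Olfr1316 and Vmn1r20) were apart as well, with differences of -2.68 to -1.55. Background at these levels was not measured, so no fold is given.

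Split by week, 0 genes were called at week 12 against the early mean (618, 3.29%, at an unadjusted p under 0.05) and 3 at week 16 (2 higher, 0.0106% of genes tested, and 1 lower, 0.00532%). Those were Saa3 (5.34), Slc22a28, a member of a kidney and liver organic anion transporter family (5.64), and Zfp991, a zinc finger gene (-4.03), each at a limma adjusted p of 0.0467. No gene was called at week 16 with the replicate number as a block or in 6 of 8 repeats that left out 1 array, replicate 1 of week 16 among them, while 27 were called without replicate 2 of week 16. Saa3 differed by 4.64 at week 12, with an adjusted p of 0.235. Slc22a28 was at 9.85 and 7.75 at week 16 and at 2.38 and 4.23 at week 12, against 2.49 to 3.70 in the early mice. Zfp991 was at 4.03 and 4.70 at week 16 and at 8.51 and 7.51 at week 12, against 8.08 to 8.85 in the early mice. For those 2 genes the week 12 mice were near or within the early range. Neither week 16 against week 12 nor week 8 against week 4 had a gene called (972, 5.17%, and 955, 5.08%, at an unadjusted p under 0.05).

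The same contrast was then set in the other genotypes, in 1 fit of 24 arrays with weights by genotype (0.208 in DKO, 1.09 in KO, 4.41 in WT). Saa3 was at 3.81 to 6.51 late, against 4.01 to 4.21 early, in KO, and at 3.87 to 5.03 late, against 3.93 to 4.04 early, in WT. The late minus early difference was 4.53 ± 1.03 greater in DKO than in WT (limma adjusted p of the interaction 0.396) and 4.27 ± 1.10 greater than in KO (adjusted p = 0.385). Fpr2 had late levels of 3.99 to 4.36 in KO and 3.83 to 4.41 in WT. Its difference was 3.34 ± 0.60 greater in DKO than in WT (adjusted p = 0.14) and 3.70 ± 0.64 greater than in KO (adjusted p = 0.0867). Clec4d gave 2.90 ± 0.56 against WT (adjusted p = 0.14) and 3.28 ± 0.59 against KO (adjusted p = 0.0867). No interaction was called, with 1043 genes (5.55%) against WT and 1262 (6.72%) against KO at an unadjusted p under 0.05. Without the weights 10 genes were called against WT and 78 against KO, with Saa3, Fpr2 and Clec4d in both sets. With the weights but without replicate 2 of week 8, 13 and 10 were called, with Fpr2 and Clec4d in both sets and Saa3 in neither. Whether the change differed between genotypes was therefore called or not according to the weights and to single mice, since 2 and 3 genes were called without replicate 2 of week 16.

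**Figure D5:**
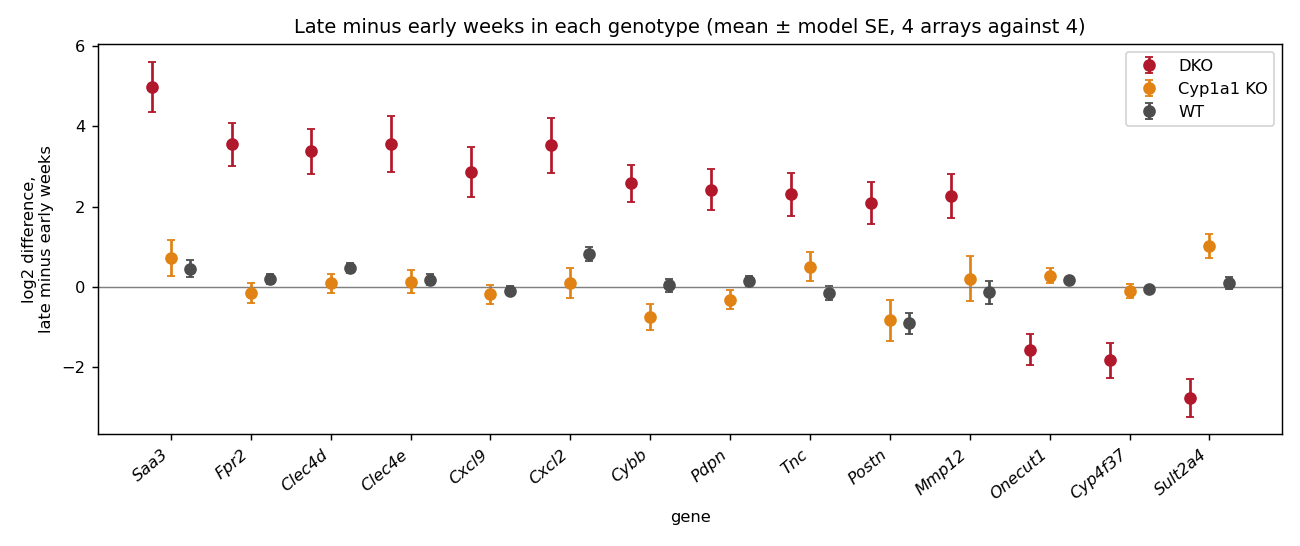
Late minus early log2 difference (vertical axis) for 14 genes in DKO (red), Cyp1a1 KO (orange) and WT (grey), as mean ± model SE of 4 arrays against 4, with the DKO error from the fit of 8 DKO arrays and the others from the weighted fit of 24. DKO Saa3 stands at 4.99, against 0.72 in KO and 0.46 in WT, and the WT errors are the smallest.

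In WT the same fit called 174 genes, 76 higher (0.405% of genes tested) and 98 lower (0.522%), and in KO it called 0 (2272, 12.1%, at an unadjusted p under 0.05). Cxcl2 was among those called in WT, with a difference of 0.82 ± 0.18 (limma adjusted p = 0.0382), as was Clec4d with 0.48 ± 0.12 (adjusted p = 0.0483). Il1b had the lowest adjusted p in WT, at a difference of 1.27 ± 0.19 (limma adjusted p = 0.00455). Its difference was 0.98 ± 0.88 greater in DKO than in WT. Lyz2 (0.71 ± 0.16, adjusted p = 0.0429) and Cd14 (0.55 ± 0.13, adjusted p = 0.0478) were also called in WT. The count in WT was 0 without the weights, 28 on deposited values, 23 with the replicate number as a block and 80 to 92 without single DKO arrays. Il1b was called in each of these settings but the fit without the weights. Cxcl2 was called on deposited values and in each of those repeats but not with the other settings, and Clec4d in 1 of the repeats alone. Their WT levels stayed at 4.22 to 5.21 late, against 3.54 to 3.98 early, for Cxcl2 and at 4.19 to 4.62 late, against 3.75 to 4.22 early, for Clec4d, far below the late DKO mice. The wound matrix list had a median difference of 0.069 in WT and -0.361 in KO, and the macrophage list 0.0709 in WT and -0.324 in KO. Postn differed by -0.90 ± 0.26 in WT and -0.83 ± 0.52 in KO, opposite in sign to DKO (limma adjusted p of the interaction with WT 0.882). These list medians have no test of the difference between genotypes.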

How the data were processed

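Gene expression was measured on 30 arrays, 1 mouse each, in 15 groups of 2 mice. The authors deposited log2 intensities per probe set, made with RMA (background correction, quantile normalization and probe summary), per the submitters' processing notes. The build behind the array annotation is not given in the sources used here, and the protocols describe amplification of RNA from whole glands. The number of arrays limits the precision, and p values measure the spread between these mice.

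Of 21212 probe sets, 18786 carried 1 gene symbol, 6 several, and 2420 were not listed. The probe set with the highest mean stood for each of 18784 genes. Among the unlisted probe sets, 0 were called. Deposited values were quantile-normalized again over the 30 arrays. limma 3.58.1 under R 4.3.3 (lmFit, eBayes, two-sided) compared 4 late with 4 early DKO arrays (residual degrees of freedom 6, prior 8.43), with Benjamini-Hochberg adjustment over all genes and a threshold of 0.05. Further fits took 1 mean per week, the 10 DKO arrays with week 0, and the 24 arrays of weeks 4 to 16 with weights by genotype. "Apart" means that no late array overlapped an early one. Errors after ± are model standard errors. The fit was tested on simulated data. It called 21 of 50 genes given a log2 change of 2, 46 of 50 given 4 and 50 of 50 given 6 or 8, with 5 false calls.

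The members, the 31 gene lists (430 of 474 genes measured) and the tests were chosen with earlier results of these data known. Genes were named by rule: the targeted genes, the 12 nearest the threshold on each side that were apart, predicted models (names such as those ending in Rik) left out, 10 by interaction with WT by the same rule and up to 4 a list by unadjusted p. Of 151 such genes 72 are described. A further 29 were named after their values were seen: S100a9, Cd300ld4, Cxcl13, Ifitm1, Sprr2f, Clec4n, Clec7a, Saa1, Saa2, Saa4, Slc22a28, Zfp991, Il1b, Cxcl1, Cxcl5, Cxcr2, Ly6g, Csf3r, Elane, Mpo, Ngp, Lcn2, Cd14, Fn1, Fap, Loxl2, Fth1, 9930014A18Rik and 5530400C23Rik. Alternatives were other scalings, ranks, a filter on low values, variance models, array weights, other sets of arrays, a trend over weeks, a replicate block and leaving out each array.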

Additional observations from a re-analysis of the deposited data

Results flagged for a closer look

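Of 202 groups of 4 arrays tested (late and early for 101 genes), 16 had a mouse far from the other 3. Chance gives about 1 in 20 groups for genes not chosen by their values. Here 29 genes were named after their values were seen and others by p, so that rate is no yardstick for this count. In 5 cases that mouse was replicate 2 of week 8 and it was above the other early mice: Cd300ld4 at 9.218 (nearest 3.359), Sprr1b at 10.58 (nearest 5.666), S100a9 at 11.63 (nearest 5.558), Postn at 9.185 (nearest 7.719) and C1qc at 8.714 (nearest 7.199). In replicate 1 of week 16, Lpcat2 was at 8.553 (nearest 7.408) and Il1b at 9.265 (nearest 8.266), both above the other late mice. In replicate 2 of week 16, Cd79a was at 4.9 (nearest 4.036) and Cd300ld4 at 8.424 (nearest 9.361). In week 12, Ly6g was at 4.644 in replicate 1 (nearest 2.943) and Lcn2 at 9.144 in replicate 2 (nearest 10.04). In replicate 1 of week 4, Fap was at 6.622 (nearest 4.602), Cmtm8 at 7.727 (nearest 6.731) and Ahrr at 3.037 (nearest 4.348). Sult2a4 was at 5.634 in replicate 2 of week 4 (nearest 6.648), and P2rx5 at 4.943 in replicate 1 of week 8 (nearest 5.814).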

How the results depend on the processing

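The count of genes called late against early was 1 (Saa3) with quantile normalization over the 8 arrays, deposited values, median centring, a filter on low values, the mean of probe sets, 1 mean per week, the 10 DKO arrays and a linear trend over weeks. It was 0 on ranks, 5 with trend and robust variances (Saa3, Fpr2, Clec4d, Fth1, 9930014A18Rik) and 4 with array weights (Saa3, Fpr2, Clec4d, Sult2a4). With 30 arrays, a fit that takes 1 spread over the DKO mice and the tighter WT mice, it was 988. The other comparisons in that fit gave 265 at week 12, 1766 at week 16, 870 for week 16 against week 12 and 853 for week 8 against week 4. Leaving out 1 array gave 0 to 14 late against early, 0 to 1 at week 12, 0 to 27 at week 16, 1 to 19 late and 0 to 3 early against week 0, 0 to 13 for the interaction with WT, 0 to 10 with KO and 80 to 92 in WT. The 27 came without replicate 2 of week 16, and the 14, 19, 13 and 10 without replicate 2 of week 8. On deposited values the counts were 3 at week 12, 4 for week 16 against week 12, 0 early against week 0 and 28 in WT. Without array weights they were 10 for the interaction with WT, 78 with KO, 0 in WT and 1 in KO. The cause of these shifts was not tested.

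Replicate numbers in the labels did not pair the mice: same-numbered DKO arrays had deviations correlated at -0.103 to 0.0388 over 6 pairs of weeks, 0 of them above 0.1. With the replicate block the count was 0 late against early (Saa3 at an adjusted p of 0.0507), 0 at week 16, 1 for the interaction with KO and 23 in WT.

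Of 101 genes, 92 kept their direction in every setting that tested them (21, less the filter on low values for the dimmest), and 72 were called in at least 1. Most of the 72 were called only in the fit of 30 arrays with 1 spread, which called 988 genes. Many of the 101 were chosen by p or by their values in these arrays, so a kept direction is no independent support. The genes that changed sign all had small differences. Rptn was 0.1077 in the linear trend and -0.4384 to 0.2043 without single arrays. Cyp1a1 was -0.01998 on deposited values, -0.03126 with median centring, -0.02 with array weights and -0.2878 to 0.7673 without single arrays. Tmem97 was 0.005153 on ranks, 0.0895 with array weights and -0.5429 to 0.5477 without single arrays. Saa2 was -0.00283 on deposited values, -0.0141 with median centring, -0.0228 on ranks, -0.01883 with array weights and -0.4584 to 0.7539 without single arrays. Csf3r was 0.04278 with array weights and -0.4383 to 0.2454 without single arrays. Single arrays alone turned Nqo1 (-0.6858 to 0.09055), Cxcl1 (-0.5637 to 0.2003), Ly6g (-0.6562 to 0.1817) and Lcn2 (-0.02016 to 0.4111). Levels near background are limited by signal, since no measure of detection was used here.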

Other observations

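Further genes differed between late and early DKO mice at an unadjusted p under 0.05 without passing the adjusted threshold. Fth1, the heavy chain of the iron store ferritin, was at 11.14, 11.04, 11.79 and 10.93 in the late arrays, against 9.76, 9.65, 9.33 and 10.38 in the early arrays, with no overlap (difference 1.44 ± 0.42, limma adjusted p = 0.777). Ptgs2, the inducible cyclooxygenase, was at 7.88, 7.33, 8.91 and 5.92 late, against 5.89, 5.65, 4.44 and 6.62 early, so its groups overlapped. Cxcl5, another CXCR2 ligand, differed by 2.53 ± 0.78, with 7.25 in replicate 2 of week 8 and 3.01 to 4.87 in the other early mice. Krt6a, a keratin of stressed epithelium, missed that unadjusted threshold and was at 9.67 to 11.09 late, against 7.85 to 11.18 early.

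Single members of lists whose median was small also stood out. Hsp90aa1, a heat shock chaperone, was at 6.28, 8.84, 9.65 and 8.45 late, against 10.58, 10.35, 9.94 and 9.05 early (difference -1.68 ± 0.64). Mvk, mevalonate kinase of cholesterol synthesis, differed by -1.33 ± 0.45, and Far2, a fatty acyl reductase of wax synthesis, by 1.17 ± 0.48. Klk10, a kallikrein, was apart on the lower side, at 8.68 to 9.30 late, against 9.44 to 9.93 early. Adipoq, the fat cell hormone adiponectin, was apart on the higher side (0.91 ± 0.42), and Myl1, a muscle myosin light chain, differed by 2.02 ± 0.80 with overlap.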
